A study of Bos taurus with 24 samples.

Results

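The apical membrane and its microvilli were followed through 7 genes in 24 single bovine early blastocysts, namely DPEP1, ANPEP, VIL1, EZR, RDX, MSN and PDZK1. They were taken by gene symbol, and all 7 members were present among the 24621 genes of the count table. DPEP1 was included because of its low level in serum-cultured embryos, so its values against serum are given as a description without a test. The embryos were Holstein. Of these, 8 were derived in vivo (5 males and 3 females), flushed from superovulated cows inseminated with the same bull whose semen was used in vitro. Another 8 were produced in serum conditions (3 males and 5 females), with 20% fetal bovine serum during oocyte maturation and 5% during embryo culture. The last 8 were produced in serum-free conditions (5 males and 3 females), with 20 ng/mL epidermal growth factor during maturation and 0.4% bovine serum albumin with insulin, transferrin and selenium during culture. The in vitro embryos were collected between day 6 and day 7 after insemination. The in vivo embryos were flushed on the later of these days. Embryos are named A (in vivo), B (serum) and C (serum-free) with the number of their label. Only embryos graded as early blastocysts of the best quality were used, and each embryo was 1 replicate. The in vivo embryos came from 3 cows and the in vitro embryos from 3 experiments, but the labels do not say which, so p-values treat embryos as independent.

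The outer cells of a blastocyst, the trophectoderm, form a polarized epithelium whose apical side faces outwards and carries microvilli. A microvillus is a finger of membrane around a bundle of actin filaments. Ezrin, radixin and moesin (EZR, RDX and MSN, together the ERM proteins) tie the actin filaments to the membrane, and scaffolds with PDZ domains such as PDZK1 hold transporters and receptors beneath it. Villin (VIL1) bundles and severs actin in the brush border of gut and kidney. DPEP1, a dipeptidase anchored to the membrane, and ANPEP, aminopeptidase N, cleave peptides at the outer face of the same membrane.

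The libraries held between 3253051 and 9000447 counts in exons, with a median of 4454031. Levels are given as CPM (counts scaled to a fixed library total) after scaling of library sizes by the trimmed mean of M values. Gene lengths were not used here, so levels are compared between embryos and not between genes. Fold changes come from the quasi-likelihood test of edgeR with Benjamini-Hochberg adjustment over all genes tested. Only genes with 15 counts or more throughout 1 of the groups compared were tested. A gene passed when its adjusted p was under 0.05, and was called when it also differed by at least 2-fold.

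Of the marker lists for cell types, those of the trophectoderm and the hypoblast were lower in sum in every serum embryo than in any in vivo embryo. The 9 trophectoderm genes summed to between 7521 and 14708 CPM in vivo, between 325 and 5128 CPM in serum and between 4976 and 28340 CPM in serum-free embryos. All 9 markers had counts in each condition, although CDX2, a transcription factor that defines the lineage, averaged only 1.25 CPM in vivo, 0.515 CPM in serum and 0.751 CPM in serum-free embryos. By means, the simple-epithelium keratin KRT8 made up most of the sum, at 9018, 1087 and 8919 CPM. This did not hold in every serum embryo. The lowest KRT8 level there was 38.9 CPM, and the lowest TFAP2C level was 158 CPM. Not all 9 were lower in serum, since TEAD4 averaged 32.9 ± 6.22 CPM in vivo and 53.9 ± 22.9 CPM in serum, and TFAP2C 206 ± 51.2 and 255 ± 101 CPM (SD, n = 8 each). The inner cell mass list covered 207 to 270.3 CPM in vivo, 172 to 314 CPM in serum and 129 to 409 CPM in serum-free embryos. Within it, from in vivo to serum, POU5F1 averaged 215 ± 19.7 and 146 ± 53.0 CPM, NANOG 12.4 ± 8.47 and 64.1 ± 79.2 CPM, and SOX2 8.35 ± 2.76 and 19.9 ± 15.03 CPM (SD, n = 8 each). The hypoblast list covered 343 to 595 CPM, 27.1 to 231 CPM and 128 to 402 CPM in that order, with SOX17 at 0 in all in vivo and serum embryos. PDGFRA made up most of that sum, at means of 436, 106 and 216 CPM. GATA6 was not lower in serum, at 19.1 ± 5.16, 21.4 ± 9.70 and 16.4 ± 7.33 CPM (SD, n = 8 each). From in vivo to serum, GATA4 averaged 1.66 and 0.372 CPM and HNF4A 4.81 and 0.0448 CPM. Lists for cumulus and granulosa cells, oviduct and uterus, and blood had medians of at most 18.3 CPM in every condition, with PTX3 and FOXJ1 at 0. The part of these shifts in the results below was not tested. In whole embryos, fewer cells of a type and less RNA per cell cannot be told apart.

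DPEP1 was almost absent from serum embryos. In the 8 in vivo embryos it ranged from 6.94 CPM (A9) to 179 CPM (A3), with a median of 44.1 CPM. In the 8 serum embryos it ranged from 0 CPM (B5 and B7) to 5.02 CPM (B8), with a median of 0.814 CPM. In the 8 serum-free embryos it ranged from 4.67 CPM (C2) to 344 CPM (C7), with a median of 55.3 CPM. Every serum embryo lay below every in vivo embryo, while only B8 among the serum embryos exceeded the lowest serum-free embryo.

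The 8 serum libraries together held 72 counts of DPEP1, against 2268 in vivo and 2706 in serum-free libraries. Means were 60.3 ± 53.1 CPM in vivo, 1.74 ± 2.06 CPM in serum and 81.3 ± 110.4 CPM in serum-free embryos (SD, n = 8 each). The fitted level in serum was 33.7-fold lower than in vivo (log2 fold change -5.08) and 45.5-fold lower than in serum-free embryos (log2 fold change -5.51). These are the contrasts for which the gene was picked. They stayed between -5.54 and -4.60, and between -5.97 and -4.59, when each embryo was left out in turn.

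In the comparison that the choice did not use, serum-free over in vivo, DPEP1 did not pass (log2 fold change 0.42 ± 0.64 SE, adjusted p = 0.756). The direction of this value rested on C7, without which it was -0.46 (adjusted p = 0.678), and it was 0.89 without A3 (adjusted p = 0.469). Its level was spread widely within these conditions, with a coefficient of variation of 88.0% in vivo and 136% in serum-free embryos. In serum-free culture the highest embryo, C7, held 73.7 times the level of the lowest, C2, and both were males.

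ANPEP, the other peptidase, was low everywhere. In vivo embryos ranged from 0.199 CPM (A3) to 9.62 CPM (A8) with a median of 2.81 CPM. Serum embryos ranged from 0 to 2.32 CPM (B4) with a median of 0.154 CPM, and 4 of the 8 had no count. Serum-free embryos ranged from 0 to 2.77 CPM (C3) with a median of 0.952 CPM. The groups overlapped, and the gene did not reach the count limit in any comparison. Without that limit, serum over in vivo gave a log2 fold change of -2.82 with an adjusted p of 0.0632 by edgeR's quasi-likelihood test.

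**Figure D1:**
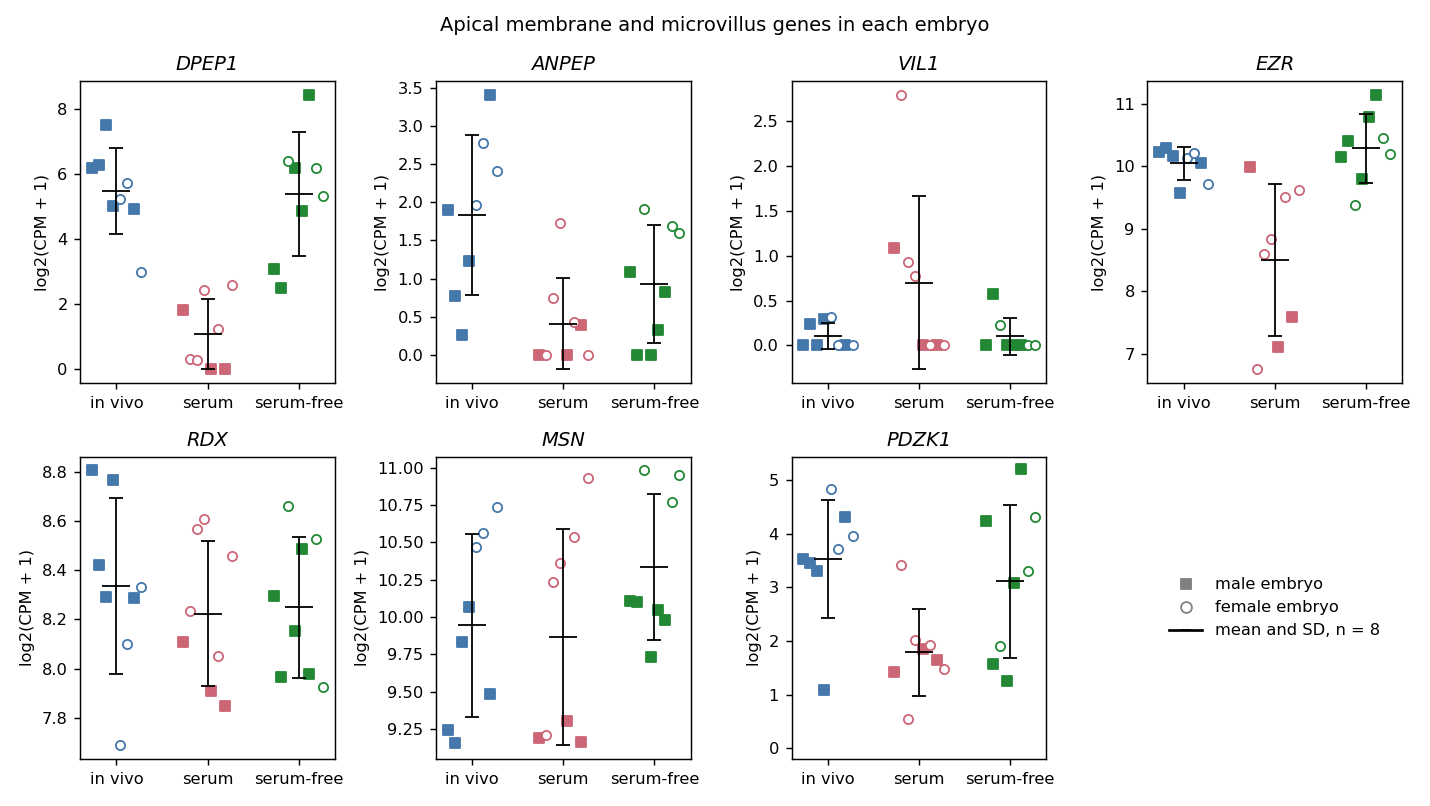
Level of each gene in each embryo as log2(CPM + 1), in vivo (blue), serum (red) and serum-free (green), with males as filled squares, females as open circles, and bars for the mean and SD on that scale (n = 8). DPEP1 sits at 5.02 CPM or less in all serum embryos, EZR spreads from 107 to 1012 CPM in serum, and vertical axes differ between genes.

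EZR was lower in serum embryos than in both other conditions. In vivo embryos ranged narrowly, from 764 CPM (A4) to 1254 CPM (A2), with a median of 1135 CPM. Serum embryos ranged from 107 CPM (B2) to 1012 CPM (B1), with a median of 419.6 CPM. Serum-free embryos ranged from 663 CPM (C3) to 2259 CPM (C7), with a median of 1261 CPM. Of the 8 serum embryos, 6 lay below the lowest in vivo embryo, and B1 and B8 lay within the in vivo range.

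EZR was called lower in serum than in vivo (log2 fold change -1.17 ± 0.37 SE, adjusted p = 0.0227) and lower in serum than in serum-free embryos (-1.49 ± 0.40 SE, adjusted p = 0.0198). Both contrasts use the same serum embryos. Serum-free over in vivo did not pass (0.31 ± 0.19 SE, adjusted p = 0.347). Leaving out B2 or B5 brought the first contrast just under 2-fold (log2 fold changes of -0.99 and -1.0), while the adjusted p stayed at 0.0254 and 0.0402. With the number in the labels as a block, the serum over serum-free contrast no longer passed (adjusted p = 0.0843).

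The coefficient of variation of EZR was 16.6% in vivo, 70.6% in serum and 37.8% in serum-free embryos. The 3 serum embryos with the least EZR, B2 (107 CPM), B5 (138 CPM) and B7 (191 CPM), were also the 3 with the lowest trophectoderm sums, at 325, 525 and 461 CPM. B1, with the most EZR in serum, had a sum of 1578 CPM, and B8, second for EZR, had the highest sum in serum at 5128 CPM. C7 held the highest EZR level, the highest DPEP1 level and the highest trophectoderm sum of all 24 embryos. It also held the highest PDZK1 level (35.9 CPM) and the highest inner cell mass sum (409 CPM). The hypoblast sums of B2, B5 and B7 were 27.1, 59.1 and 99.2 CPM, beside 76.6 to 231 CPM in the other serum embryos. The part of the trophectoderm and hypoblast markers in the EZR difference was not tested.

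**Figure D2:**
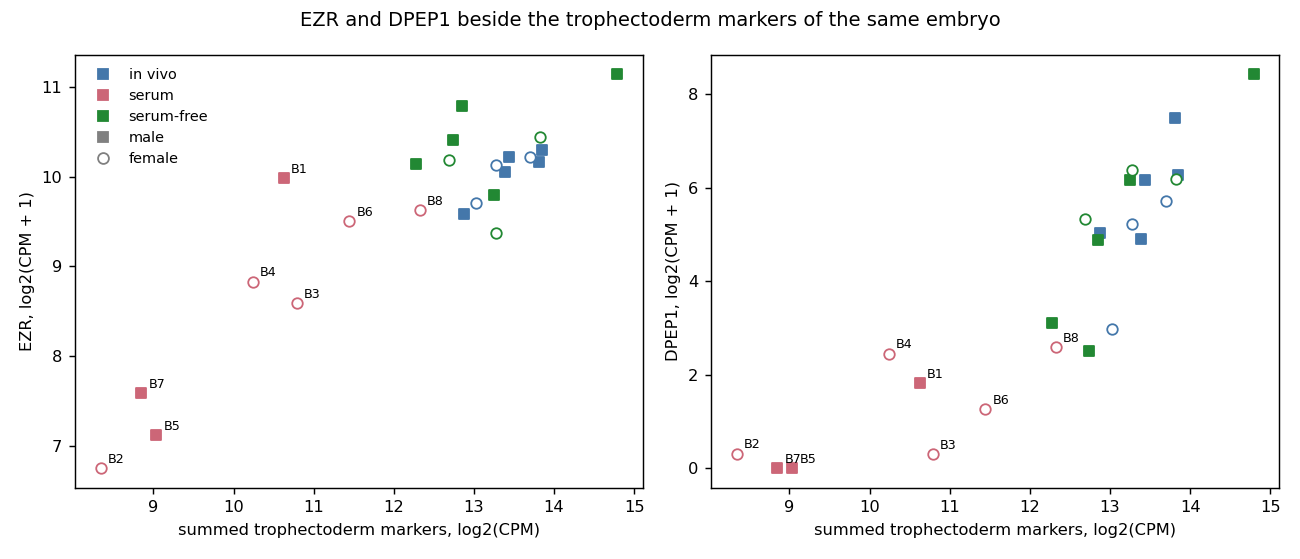
EZR (left) and DPEP1 (right) as log2(CPM + 1) against the summed CPM of the 9 trophectoderm markers (log2 scale) in the same embryo, 1 point an embryo, with serum embryos named. B2, B5 and B7 lie lowest on both axes for EZR, and their marker sums are 325, 525 and 461 CPM.

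RDX, the second ERM gene, lay in similar ranges in the 3 conditions. It ranged from 205 to 447 CPM in vivo, from 229 to 389.5 CPM in serum and from 242 to 403 CPM in serum-free embryos. The means were 331 ± 79.4, 303 ± 62.3 and 308 ± 61.8 CPM (SD, n = 8 each). None of the 3 contrasts passed (log2 fold changes of -0.12 ± 0.17, -0.09 ± 0.15 and -0.03 ± 0.16 SE for serum over in vivo, serum-free over in vivo and serum over serum-free, adjusted p of 0.606, 0.769 and 0.919 by edgeR). 

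MSN, the third ERM gene, did not pass in any of the 3 contrasts of culture either. It ranged from 569.8 to 1707 CPM in vivo, from 573 to 1957 CPM in serum and from 851 to 2023 CPM in serum-free embryos. The log2 fold changes were -0.03 ± 0.30 SE for serum over in vivo (adjusted p = 0.960), 0.36 ± 0.24 SE for serum-free over in vivo (adjusted p = 0.408) and -0.39 ± 0.28 SE for serum over serum-free (adjusted p = 0.348). Serum had more females and serum-free more males, and with sex as a covariate the last contrast passed (-0.68, adjusted p = 0.0230).

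As a description of the ERM family, EZR made up a smaller part of its reads in serum. It held 44.3 ± 9.97% of the summed CPM of the 3 genes in vivo, 24.2 ± 13.5% in serum and 44.2 ± 13.1% in serum-free embryos (SD, n = 8 each). MSN made up 41.9 ± 12.3%, 57.0 ± 10.6% and 45.2 ± 12.3%. The conditions differ in their mix of sexes, and serum had more females. Among females, from in vivo (n = 3) to serum (n = 5), EZR held 36.7% and 21.2%, and MSN 54.0% and 60.9%. Among males, from in vivo (n = 5) to serum (n = 3), EZR held 48.8% and 29.0%, and MSN 34.6% and 50.4%. The share of EZR in serum reached from 10.7% in B2 to 54.2% in B1. B1 and B6 (29.4%) lay within the in vivo range of 29.2 to 57.9%. B1, B6 and B8 (25.5%) lay within the serum-free range of 21.5 to 64.2%. These shares are of counts uncorrected for gene length and describe the mix of reads in each embryo.

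**Figure D3:**
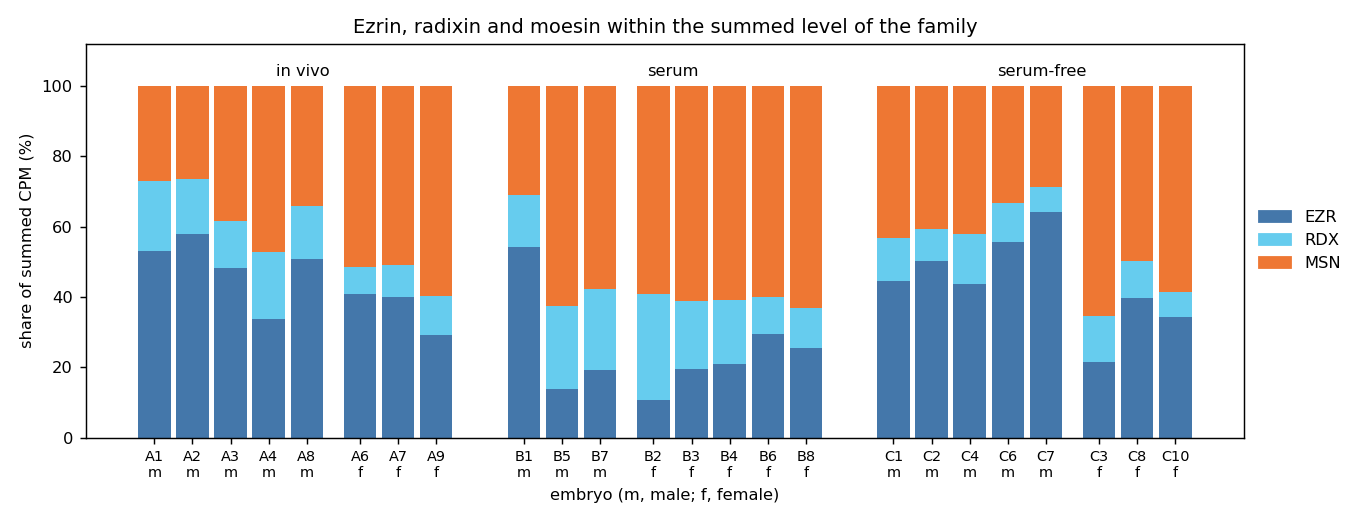
Share of EZR, RDX and MSN in their summed CPM, 1 bar an embryo, grouped by condition and sex, in percent. EZR holds 10.7 to 29.4% in all serum embryos other than B1, and MSN holds more in females than in males in vivo and in serum-free embryos.

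VIL1 was close to undetected. In vivo, 3 embryos had a single count and 5 had none. In serum, B2 had 25 counts (5.94 CPM), B1, B3 and B4 had between 0.715 and 1.13 CPM, and the other 4 had none. In serum-free embryos, C2 had 2 counts, C3 had 1 and the other 6 had none. Without the count limit the contrast of serum over in vivo did not pass (adjusted p = 0.0886 by edgeR's quasi-likelihood test), and it rests mostly on B2.

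PDZK1 was low in serum but could not be tested at the count limit. In vivo embryos ranged from 1.13 CPM (A4) to 27.8 CPM (A6) with a median of 11.4 CPM. Serum embryos ranged from 0.452 CPM (B3) to 9.73 CPM (B2) with a median of 2.38 CPM. Serum-free embryos ranged from 1.39 CPM (C4) to 35.9 CPM (C7) with a median of 8.22 CPM. Apart from A4, every in vivo embryo exceeded 7 of the 8 serum embryos.

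A4 had 5 counts of PDZK1 and kept the gene under the limit. Without the limit, PDZK1 was lower in serum than in vivo (log2 fold change -2.11, adjusted p = 0.0147). Serum over serum-free without the limit gave -1.99 with an adjusted p of 0.0785.

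Across the members other than DPEP1, 1 of the 3 tested (EZR) was called in serum over in vivo, where 13.8% of all genes tested were called. In serum-free over in vivo, none of the 4 tested was called, and the background was 2.2%. In serum over serum-free, 1 of the 3 tested other than DPEP1 was called, beside 8.91% of all genes. In serum-free over in vivo, DESeq2 also called no member, and across all genes 1571 of 7314 had an unadjusted p under 0.05.

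MSN differed by sex. The gene lies on the X chromosome in mammals. In vivo, the males held 569.8, 604, 715, 909 and 1073 CPM and the females 1414, 1516 and 1707 CPM. In serum-free embryos, the males held 851, 1007, 1055, 1097 and 1099.9 CPM and the females 1745, 1983 and 2023 CPM. All males lay below all females in both conditions. How many of all genes separate the sexes in this way was not counted.

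In serum, the males held 573, 581 and 629 CPM, and the females held 589.8 CPM in B2 and 1205 to 1957 CPM in the other 4. Only B2 overlapped the males. Male over female gave log2 fold changes of -1.0 ± 0.18 SE in vivo (adjusted p = 0.0103), -1.16 ± 0.35 SE in serum (adjusted p = 0.483) and -0.90 ± 0.15 SE in serum-free embryos (adjusted p = 0.0451). MSN was thus called in vivo, at a fold of 2.00 that sits on the threshold, and passed in serum-free culture at 1.86-fold.

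No other member passed in any of the 3 sex contrasts, in which 5, 3 and 5 members were tested. The background of called genes was 0.653% in vivo, 0.173% in serum and 0.139% in serum-free embryos, and that of genes that passed at any fold was 1.26%, 0.173% and 0.152%. The background depended on the test, with 52, 13 and 11 genes called, against 119, 62 and 53 by edgeR's exact test and 116, 97 and 57 by DESeq2. The sex call of MSN was lost in vivo in 5 of the 8 fits that each left out 1 embryo. It no longer passed without A7 (adjusted p = 0.0578) or A9 (adjusted p = 0.0791), and passed at less than 2-fold without A1, A2 or A8 (log2 fold changes of -0.93, -0.91 and -0.98). In serum it passed without B2 (adjusted p = 0.0434). In serum-free embryos it passed only without C7 among the fits that each left out 1 embryo, with adjusted p up to 0.340 in the others. Over all 24 embryos with culture condition as a covariate, an analysis added after the data were seen, MSN was lower in males (log2 fold change -1.02, adjusted p = 4.45e-05).

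The ANPEP levels of the sexes did not overlap in serum-free embryos, with males at 0 to 1.13 CPM and females at 2.03 to 2.77 CPM. ANPEP was below the count limit, with 6 counts in male C1 and 7 in female C10. The share of all genes without overlap was not counted, so this is a description only. The difference between sex effects of 2 conditions was tested as an interaction. No gene passed, member or other, for serum and in vivo (0% called, smallest adjusted p = 0.664) or for serum-free and in vivo (0% called, smallest adjusted p = 0.428) by edgeR's quasi-likelihood test. At an unadjusted p under 0.05 there were 436 and 555 genes, and DESeq2 called 14 and 5, no member among them.

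**Figure D4:**
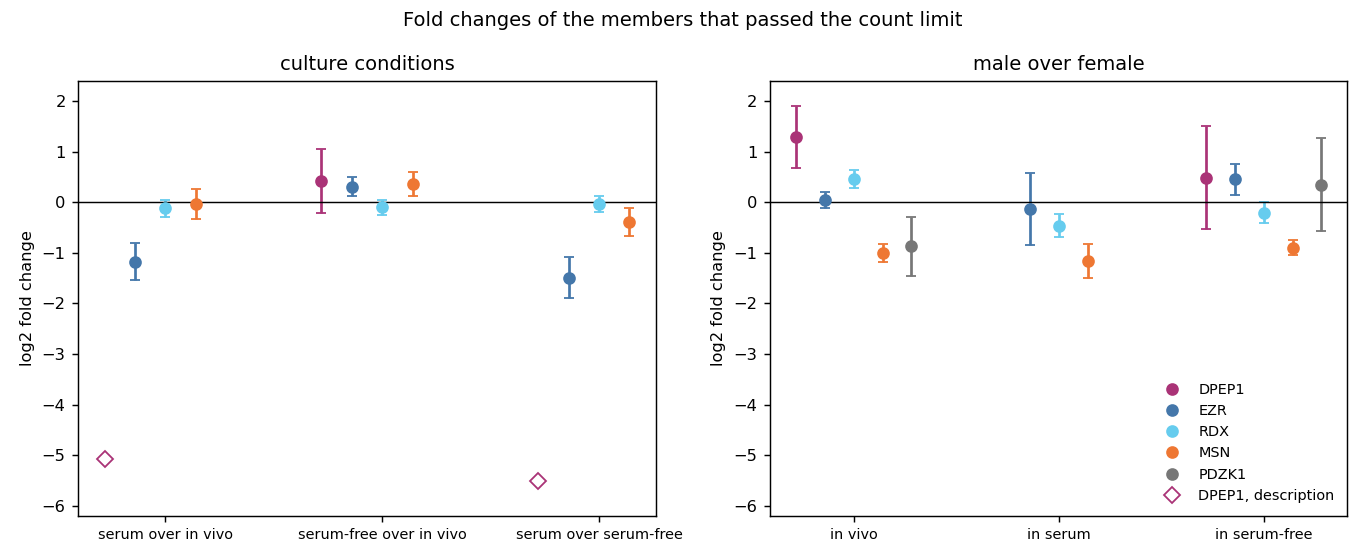
Log2 fold changes with approximate SE from edgeR for members that reached the count limit, between culture conditions (left) and for male over female (right). EZR lies at -1.17 and -1.49 in the contrasts with serum, MSN lies between -1.16 and -0.90 in the sex contrasts, and DPEP1 against serum is an open diamond because it was chosen for that difference.

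The other genes of the apical membrane and microvillus were taken from 4 lists of 101 genes in all, of which 93 were in the table. Serum over in vivo tested 41, and 8 were lower, 2 were higher and 31 did not pass. Among all genes tested, 13.4% passed lower and 14.8% higher. Of the 41, 19.5% were called, beside 13.8% of all genes. A gene could reach the count limit through 1 group alone. With 15 counts required in every embryo of both groups, 4 list genes were called in place of 8. Of all genes tested, 544 were then called in place of 1011. Fewer genes were tested at that stricter limit, and the shares called were not compared there. The 19.5% beside 13.8% is therefore a description. Of the list genes that passed, PLS1, SLC9A3R1, PRKCZ and AVIL reached the limit in 1 group only. Their values below are a description, since they were tested through that group. The median log2 fold change of the 41 was -0.55, against 0.01 for all genes.

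The microvillus core (actin bundlers, myosins and villin relatives) had 15 tested genes, of which 3 were lower and 2 higher, with a median of -0.67. PLS1, the plastin that bundles actin in brush-border microvilli, had a mean of 185 ± 85.8 CPM in vivo, 14.4 ± 20.8 CPM in serum and 225 ± 299 CPM in serum-free embryos (SD, n = 8 each). The gene reached the count limit in 1 group only. As a description, its log2 fold change in serum over in vivo was -3.67. PLS3, the plastin of many cell types, rose by 1.97 (adjusted p = 0.0024), from 27.8 ± 11.2 to 108 ± 82.6 CPM. The fitted values of these 2 bundlers had opposite signs, with that of PLS1 a description.

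CAPG, which caps actin filaments, was lower in serum (log2 fold change -2.06, adjusted p = 0.00133), with 605 ± 104 CPM in vivo and 145 ± 95.4 CPM in serum. The motor MYO1E was lower by less than 2-fold (-0.67, adjusted p = 0.0230). The villin relative AVIL reached the count limit in 1 group only, and its log2 fold change of 1.27 is a description. The membrane-bending PACSIN2 (-0.61, adjusted p = 0.258) did not pass. MYO1E no longer passed when A1, A4, A7, B5 or B7 was left out, with adjusted p up to 0.0598.

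Partners of the ERM proteins had 11 tested genes, of which 3 were lower and none higher, with a median of -0.09. SLC9A3R1, the PDZ scaffold that binds ERM proteins at the apical membrane, reached the count limit in 1 group only. As a description, its log2 fold change was -1.89 ± 0.55 SE. Its level was 189 ± 60.7 CPM in vivo and 51.1 ± 49.8 CPM in serum. ARHGDIA was also lower (-1.16, adjusted p = 0.00147), as was the phosphatase subunit PPP1CB (-0.48, adjusted p = 0.0370). RHOA (0.19, adjusted p = 0.295) and PIP5K1A (0.57, adjusted p = 0.212) did not pass. PPP1CB passed in only 6 of the 16 fits that each left out 1 embryo, with adjusted p up to 0.0834 without A1, A4, A6, A7, A8, A9, B2, B3, B5 or B7.

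Apical polarity complexes had 12 tested genes, of which 2 were lower and none higher, with a median of -0.54. INADL, a scaffold of the Crumbs complex, was lower (log2 fold change -2.47, adjusted p = 0.00128), with 107 ± 26.3 CPM in vivo and 19.3 ± 22.3 CPM in serum. The atypical protein kinase C gene PRKCZ reached the count limit in 1 group only, and its log2 fold change of -1.54 is a description. CDC42 (0.07, adjusted p = 0.719) and LIN7C (0.18, adjusted p = 0.531) did not pass.

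Of the other apical enzymes, 3 reached the count limit and none passed, with a median of -0.57. ENPEP, glutamyl aminopeptidase, had 1059.5 ± 243 CPM in vivo and 715 ± 624 CPM in serum (log2 fold change -0.57, adjusted p = 0.272). Without B5, ENPEP passed (-0.97, adjusted p = 0.0320). MME, neprilysin, gave -0.55 (adjusted p = 0.401).

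**Figure D5:**
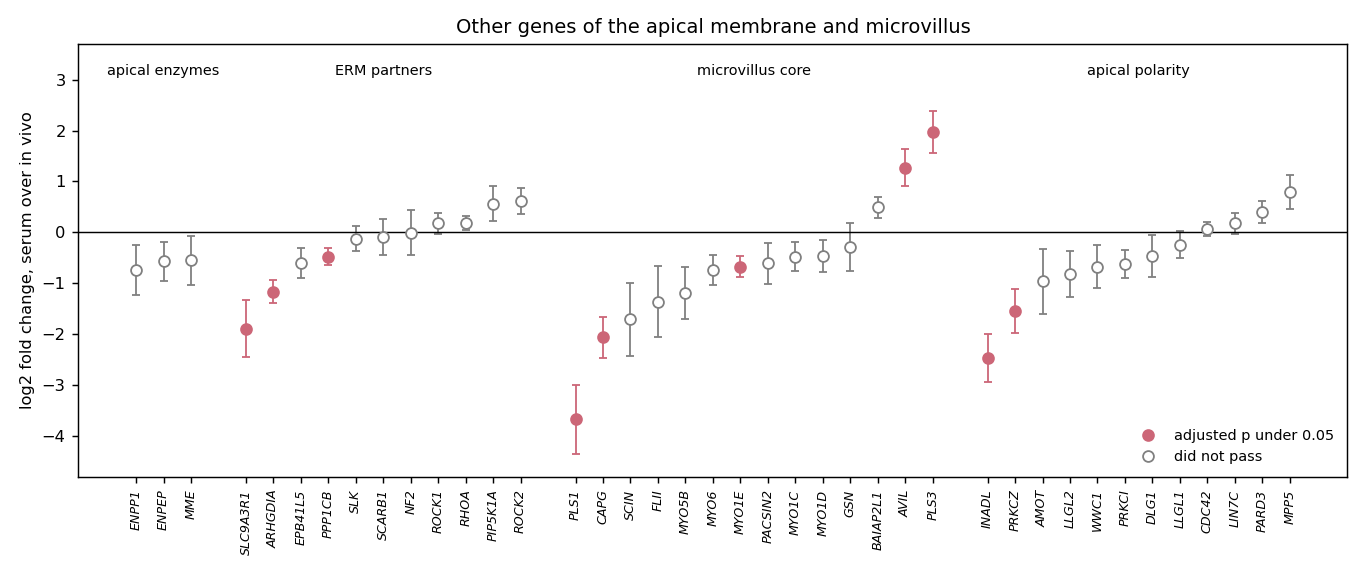
Log2 fold change of serum over in vivo with approximate SE for tested genes of the 4 lists, filled where the adjusted p was under 0.05. PLS1 is lowest at -3.67 and PLS3 highest at 1.97, and the open points did not pass. Among the filled points, PLS1, SLC9A3R1, PRKCZ and AVIL reached the count limit in 1 group only.

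In serum-free over in vivo, 1 of the 41 tested list genes passed, LIN7C, which was higher (log2 fold change 0.58, adjusted p = 0.0416). It did not pass in 9 of the 16 fits without single embryos (A1, A2, A3, A6, A7, C3, C4, C6 or C8, adjusted p up to 0.0797), and CDC42 passed without C3 (adjusted p = 0.0425). Among all genes tested, 3.38% passed higher and 2.45% lower. The median over the lists was 0.08, against 0.00 for all genes. In serum over serum-free, 38 were tested, of which 6 were lower and 1 was higher, where 8.02% of all genes passed lower and 8.29% higher. The lower genes were PLS1 (-3.96, a description), INADL (-1.92, adjusted p = 0.0170) and CAPG (-1.87, adjusted p = 0.00931). Also lower were ARHGDIA (-1.0, adjusted p = 0.0131), MYO6 (-0.78, adjusted p = 0.0326) and PPP1CB (-0.70, adjusted p = 0.0148). PLS3 was higher (1.55, a description). It passed in only 4 of 16 fits without single embryos (B1, B4, B8 or C3 left out). In the other fits its adjusted p was up to 0.101. MYO6 did not pass without B3, B7, C3, C4, C7 or C8 (adjusted p up to 0.0831). In this contrast, PLS1 and PLS3 reached the count limit in 1 group only, so their values are a description. The serum embryos are the same in both contrasts, and the trophectoderm and hypoblast sums above apply to these genes as well.

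Embryos that differed in 1 member did not all differ in the others. Pearson's r of log2(CPM + 1) over the 24 embryos, after the mean of each condition was subtracted, was 0.41 between DPEP1 and EZR, 0.24 between EZR and MSN, 0.05 between EZR and RDX and -0.41 between RDX and PDZK1. ANPEP and MSN had an r of 0.45, which was 0.00 when sex was also centred. These are descriptions over embryos that share library preparation and scaling.

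Among all 7207 genes compared in the same way, the genes most like EZR were CCND2 (r = 0.91), GGA2 (0.90) and the trophectoderm factor GATA3 (0.89). Subtracting the mean leaves the spread of each condition unequal. For EZR the coefficient of variation was 70.6% in serum, 37.8% in serum-free embryos and 16.6% in vivo. Its r values therefore weigh the serum embryos most, and r within each condition was not computed. Most like DPEP1 were PTER (0.83), ODF2L (0.78) and SYNJ2BP (0.76). Most like MSN were FAM50A, PDZD11 and BCAP31 (each about 0.88 or 0.87), which had an r of 0.53 to 0.59 with MSN once sex was centred. Values were lower for RDX (HDAC3, 0.69, TRIML2, 0.68, and N6AMT2, 0.62) and PDZK1 (RIMKLB, 0.66, TMEM79, 0.65, and RNF2, 0.65). By Spearman's rank correlation, RIMKLB, TMEM79 and RNF2 ranked only 30, 41 and 11 for PDZK1. GATA3 ranked 20 for EZR and BCAP31 34 for MSN, while the other named genes stayed among the 10 most alike by that measure. With sex also centred, FAM50A, PDZD11 and BCAP31 ranked only 773, 601 and 894 for MSN by Pearson's r. SYNJ2BP then ranked 17 for DPEP1 and N6AMT2 13 for RDX, and the other named genes stayed among the 10 most alike. ANPEP and VIL1 are left out of this account because most of their counts were near 0.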

How the data were processed

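Single early blastocysts were sequenced, 1 library an embryo. According to the study's methods, reads were quality trimmed, mapped with CLC Genomics Workbench to the UMD3.1 build with Ensembl genes, and only uniquely mapped fragments in exons were counted, without strand information. The authors deposited these raw counts per gene, which are not normalized and were used as deposited. Shallow libraries from 1 embryo, amplified by PCR without molecular identifiers, limit precision for genes of few counts, such as ANPEP and VIL1.

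Groups came from the labels. edgeR 4.0.16 (R 4.3.3) was fitted with TMM factors to the groups compared, with genes kept at 15 counts in every embryo of at least 1 group. SE values are approximate, from the estimate and F. The scripts were tested on simulated data. The members, lists and rules for named genes were chosen with earlier results of these data known. Named genes were the 7 members, at most 3 passed genes in each direction and 2 others per list, and the 3 most similar genes. Alternatives were DESeq2 1.42.0, edgeR's exact test, DESeq2 size factors, other count limits, 1 fit over all embryos, sex or culture as covariate, a block on label number and leaving out each embryo. The label numbers did not pair the samples (7 shared numbers per comparison, r of deviations from -0.13 to 0.09). A gene of the lists is counted but not reported here by name. No sequences or coordinates are given.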

Additional observations from a re-analysis of the deposited data

Results flagged for a closer look

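Among 42 groups of 8 or 5 embryos examined on log2(CPM + 1), 5 had 1 embryo far from the rest by Dixon's 95% criterion. Groups of 5 were the larger sex of a condition and lie within its 8 embryos. Chance alone gives about 1 in 20 for normally distributed values, which counts near 0 are not. In serum, B4 was high for ANPEP, at 2.32 CPM from 13 counts, with the next embryo at 0.678 CPM. In serum, B2 was high for VIL1, at 5.94 CPM from 25 counts, with the next embryo at 1.13 CPM. In serum-free embryos, C2 was high for VIL1, at 0.492 CPM from 2 counts, both among all 8 and among the 5 males. In vivo, A4 was low for PDZK1, at 1.13 CPM from 5 counts, with the next embryo at 8.96 CPM. DPEP1, EZR, RDX and MSN had no such embryo.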

How the results depend on the processing

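No result that passed changed direction, while some that did not pass did. With the replicate block, MSN in serum over in vivo became 0.13 (log2 fold change) and DPEP1 in serum-free over in vivo -0.36. The fit over all 24 embryos with culture as a covariate gives 1 sex effect for all conditions. For male over female it was -0.071 for RDX, against 0.47 in vivo alone. For EZR it was 0.12, against -0.14 in serum alone. RHOA in serum over serum-free became 0.0081 with at least 1 count in any embryo and 0.019 with one fit over all 24 embryos. Leaving out single embryos spanned 0 in further cases. In serum over in vivo MSN ranged from -0.22 to 0.11. In serum-free over in vivo the ranges were -0.46 (without C7) to 0.89 (without A3) for DPEP1, -0.17 to 0.00072 for RDX and -0.16 to 0.017 for ENPEP, and in serum over serum-free -0.091 to 0.056 for RDX and -0.028 to 0.071 for RHOA. For male over female they were -0.073 to 0.16 for EZR in vivo, -1.64 (without B1) to 0.29 for EZR in serum, -1.21 (without C7) to 0.79 for DPEP1 and -0.46 (without C7) to 1.16 for PDZK1 in serum-free embryos. For the difference in sex effect between serum and in vivo they were -1.65 to 0.26 for EZR, -0.31 to 0.063 for MSN and -0.25 to 0.98 for PDZK1. The count of members called in serum over in vivo was 1, was 2 with at least 1 count in any embryo, and ranged from 0 to 2 when each embryo was left out. The 2 came without A4, which let PDZK1 reach the count limit through the in vivo group, where it was high. In serum over serum-free it was 0 instead of 1 with the replicate block, and all genes called fell from 640 to 28 there. In male over female in vivo it was 0 instead of 1 with DESeq2, with DESeq2 size factors in edgeR, with at least 1 count in any embryo and with one fit over all 24 embryos (MSN adjusted p = 0.0681), and 0 to 1 when each embryo was left out, with the MSN fold lying at the threshold of 2. In serum it was 1 instead of 0 with one fit over all 24 embryos (MSN adjusted p = 0.0297), and 0 to 1 without single embryos. In serum-free, MSN no longer passed with DESeq2 size factors (adjusted p = 0.0548), 15 counts in every embryo (0.164) or one fit over all 24 embryos (0.218). The fit with culture as a covariate called MSN for all conditions together, which is not a result of serum or serum-free alone. Called list genes in serum over in vivo went from 8 to 4 with 15 counts in every embryo (fewer genes tested), in serum-free over in vivo from 0 to 1 with edgeR's exact test or DESeq2, and in serum over serum-free from 4 to 7 with one fit over all 24 embryos. Leaving out single embryos gave 8 to 9, 0 to 1 and 3 to 7 list genes called in these contrasts, and the replicate block gave 0 in serum over serum-free, where the adjusted p of PLS1 became 0.0522 and that of INADL 0.0595 (both added after the data were seen). With the block, PLS3 (0.0640), PPP1CB (0.0696), PRKCZ (0.0812) and MYO1E (0.163) no longer passed in serum over in vivo, and ENPEP did (0.0389). Where no cause is named, the cause was not tested. Of all genes, 544 were called in serum over in vivo with 15 counts in every embryo, against 1011, and 366 against 640 in serum over serum-free. The block on label numbers, which did not pair the samples, changed no other member call in the culture contrasts. Depth limits ANPEP, VIL1 and PDZK1, which mostly lay under 15 counts in at least 1 embryo of each group.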
